A study of Mus musculus and Homo sapiens with 22 samples.

Results

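The mouse genes of the respiratory chain were described in N2A cells, a mouse neuroblastoma line. Members were chosen by symbol (the Nduf, Sdh, Uqcr, Cox4 to Cox8 and Atp5 families and the mitochondrially encoded mt-Nd, mt-Co, mt-Cytb and mt-Atp genes, without Cox6a2) and by a minimum of 100 reads in each of the 6 N2A files. Of 97 matching symbols 92 were members, among 22667 genes listed and 10793 genes that had at least 100 reads in every file. They were 80 nuclear genes (37 of complex I, 4 of complex II, 8 of complex III, 14 of complex IV and 17 of complex V) and 12 mitochondrial genes (6 of complex I, 1 of complex III, 3 of complex IV and 2 of complex V). The read counts that chose the members are given as a description.

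The respiratory chain passes electrons from NADH and succinate to oxygen and pumps protons across the inner mitochondrial membrane. Complex I oxidises NADH, complex II oxidises succinate and is also an enzyme of the citrate cycle, complex III passes electrons to cytochrome c, complex IV reduces oxygen, and complex V uses the proton gradient to make ATP. Complexes I, III, IV and V are built from subunits of both genomes, whereas every subunit of complex II is encoded in the nucleus.

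The 4 siRNA libraries and the 2 hairpin files all came from polyA RNA of N2A cells. The siRNA cells received a control siRNA pool (libraries a and b), a pool against U2af65 (letter a) or a pool against Ptbp1 (letter b) and were collected at 48 hours. The hairpin cells were stable puromycin-selected populations carrying a lentiviral hairpin against GFP (shGFP) or against the nSR100 transcript (shnSR100), and each hairpin file pooled 2 runs. U2af65 is a general splicing factor that recognises polypyrimidine tracts before exons, Ptbp1 is a splicing repressor that binds such tracts, and nSR100 is a neuronal splicing activator. The study asked about splice site choice, while the values below count reads over whole genes. Control a shares its letter with siU2af65 and control b with siPtbp1, and the labels do not say what a letter stands for. Each knockdown has 1 library, so between the 2 knockdown libraries the letter and the knockdown cannot be told apart. Beside the fit to both controls, values against each control alone are given, and the control of the same letter is a for U2af65 and b for Ptbp1.

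Reads in genes ranged from 60220620 (shGFP) to 77138004 (control b). U2af2, which encodes U2af65, was at 18.4 RPKM (reads scaled by gene length and by the file's total) in the siU2af65 library and at 113 and 105 RPKM in controls a and b. Ptbp1 was at 8.53 RPKM in the siPtbp1 library against 158 and 139 RPKM in the controls, and Srrm4, which encodes nSR100, was at 2.50 RPKM in shnSR100 against 11.6 RPKM in shGFP. Of 13 sympathetic neuroblast markers 11 were at 1 RPKM or more in every file. So were 2 of 4 glia, 1 of 2 endothelial and 1 of 4 muscle markers. Glia and endothelial markers summed to at most 5.14 and 9.21 RPKM, and immune markers to at most 0.98 RPKM. Muscle markers summed to 44.3 RPKM in siU2af65 and 3.29 RPKM in siPtbp1. Nearly all of each sum was 1 gene, Cox6a2, and the other 3 muscle markers were under 1 RPKM in every file. Fibroblast markers summed to 12.2 RPKM in shnSR100, 7.27 RPKM in shGFP and at most 0.84 RPKM in the siRNA libraries. In such bulk RNA, fewer cells of a type and less RNA per cell cannot be told apart.

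RefSeq promoters (GRCm38.p6, 250 bases before to 50 after a start) were matched to 64 of the 80 nuclear members, with 69 promoters between them. They were searched on both strands for GCATGCG, part of the site of NRF1, and for CCGGAAG, an ETS core as GABPA binds it. Both factors are known regulators of respiratory chain genes. GCATGCG was found in 11 of the 69 promoters (15.9%) and in 3.58% of all 32851 promoters. CCGGAAG was found in 16 of the 69 (23.2%) and in 8.86% of all promoters. All promoters were taken whatever the level of their gene, and were not matched to the members in level or base content. The shares are a description with no test. GCATGC reads the same on both strands, so 1 site can match GCATGCG in both directions. The windows below come from 4 members whose promoters hold both motifs upstream of the start or at it. The motif is in capitals (on the reverse strand it reads CTTCCGG), and each window is on the minus strand of the genome.
Atp5j, GCATGCG, chr16:84835108-84835130: cagaatacGCATGCGtacagtgc
Atp5j, CCGGAAG, chr16:84835023-84835045: tgagggacCCGGAAGcacttacc
Atp5l, GCATGCG, chr9:44920968-44920990: ccaataacGCATGCGcatttccc
Atp5l, CTTCCGG, chr9:44920940-44920962: tcaccgatCTTCCGGaccaacat
Cox6a1, GCATGCG, chr5:115349104-115349126: aacggggcGCATGCGcgctctcg
Cox6a1, CTTCCGG, chr5:115348960-115348982: catttccgCTTCCGGcgcgccgg
Uqcr11, GCATGCG, chr10:80406811-80406833: gccttcacGCATGCGctatacgt
Uqcr11, CCGGAAG, chr10:80406873-80406895: tctcctccCCGGAAGtagatgtc

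The 4 genes encode a coupling factor and a membrane subunit of complex V (Atp5j, Atp5l), a subunit of complex IV (Cox6a1) and a small subunit of complex III (Uqcr11). A match is a description of letters in the window and not of binding. The 21 members with either motif had a median log2 difference of -0.09 in the U2af65 knockdown and of 0.11 in the Ptbp1 knockdown. The 43 members with neither motif had medians of -0.13 and 0.09. Their median mean level was 100.2 RPKM, and that of the members with either motif was 164 RPKM.

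The nuclear members spanned a wide range of levels, given per length as RPKM averaged over the 6 files. In complex I the lowest was Ndufb2 (9.48 RPKM), an accessory subunit, and the highest Ndufa4 (622 RPKM), a protein now placed with complex IV, with a median of 89.6 RPKM over the 37 genes. In complex II the iron-sulphur subunit Sdhb was at 291 RPKM and the membrane anchor Sdhc at 37.4 RPKM. Complex III ran from Uqcr11 (78.8 RPKM) to Uqcrb (236 RPKM). Complex IV ran from Cox7a1 (10.8 RPKM), a muscle-type isoform, to Cox4i1 (828 RPKM), and complex V from Atp5s (8.15 RPKM), a coupling factor rather than a catalytic subunit, to Atp5b (1481 RPKM), the catalytic beta subunit. The median was highest in complex V (211 RPKM) and lowest in complex II (81.8 RPKM). The length behind an RPKM is the authors' and is unlike the transcript for some genes. It was 4225 bases for Ndufb2 and 24 bases for mt-Atp8, so the level of these genes is uncertain.

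**Figure D1:**
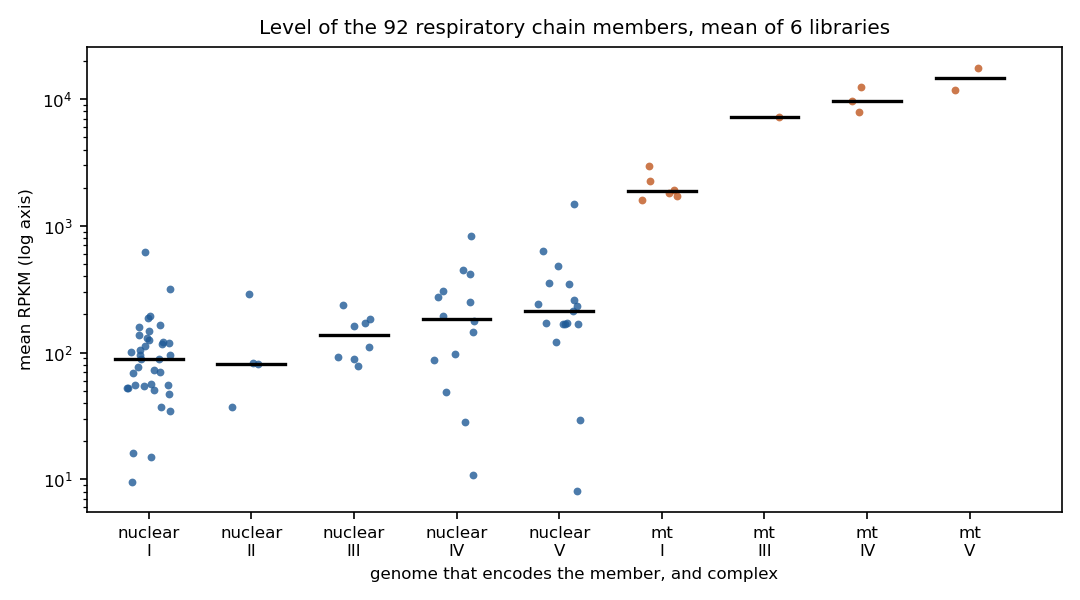
Mean RPKM over 6 files (vertical log axis) of each member, by encoding genome and complex. Each point is 1 gene and each bar the median of its class. The nuclear medians lie between 81.8 and 211 RPKM, and the mitochondrial genes lie at 1592 RPKM or more.

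The mitochondrial genes ranged from mt-Nd6 (1592 RPKM) to mt-Atp6 (17547 RPKM), the latter with a length of 83 bases. They took 5.27% and 5.63% of the reads in genes in controls a and b, 4.58% in siU2af65, 5.10% in siPtbp1, 4.90% in shGFP and 4.61% in shnSR100. The 80 nuclear members together took 1.30% and 1.28% in the controls, 1.25% in siU2af65, 1.41% in siPtbp1, 1.13% in shGFP and 1.23% in shnSR100. The mitochondrial share was lowest in siU2af65 and the nuclear share highest in siPtbp1. The exact binomial interval (95%) of the mitochondrial share in control a ran from 5.27% to 5.28% and covers counting error only. Copies of mitochondrial DNA in the nucleus and processed pseudogenes of small subunits can share reads with members, and mt-Nd6 lies on the opposite strand of the other mitochondrial genes. How the authors treated such reads and the strand is not given in the sources used here.

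Isoform pairs differed in how uneven they were. Cox4i2, the oxygen-responsive form of the regulatory subunit Cox4, was at 74.7 RPKM in control a and at 17.3, 31.7, 19.1, 13.7 and 13.8 RPKM in control b, siU2af65, siPtbp1, shGFP and shnSR100. Ndufa4l2, a hypoxia-induced relative of Ndufa4, was at 43.4 RPKM in control a and at 12.5, 16.8, 8.77, 6.0 and 3.16 RPKM in the same files. Cox7a1 was at 24.5 RPKM in control a and at 8.77, 6.96, 10.2, 7.80 and 6.56 RPKM. Control a was thus the highest file for each of the 3 genes. Cox4i2 was 8.12% of Cox4i1 in control a and between 1.99% and 3.55% in the other 5 files. Cox7b2, a testis-type relative of Cox7b, stood at 72.6% of Cox7b in shGFP and at 30.3% in siU2af65. Cox8b, Cox8c and Cox6b2 had at most 7 reads in any file, and Atp5l-ps1 had at most 1, so none was a member. For mt-Nd4l the authors' files give 0 reads and no RPKM, unlike the other 4, so its 0 is not read as a level. Just inside the minimum, the lowest file had 148 reads for Cox7a1, 212 for Ndufa4l2 and 561 for Cox4i2.

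**Figure D2:**
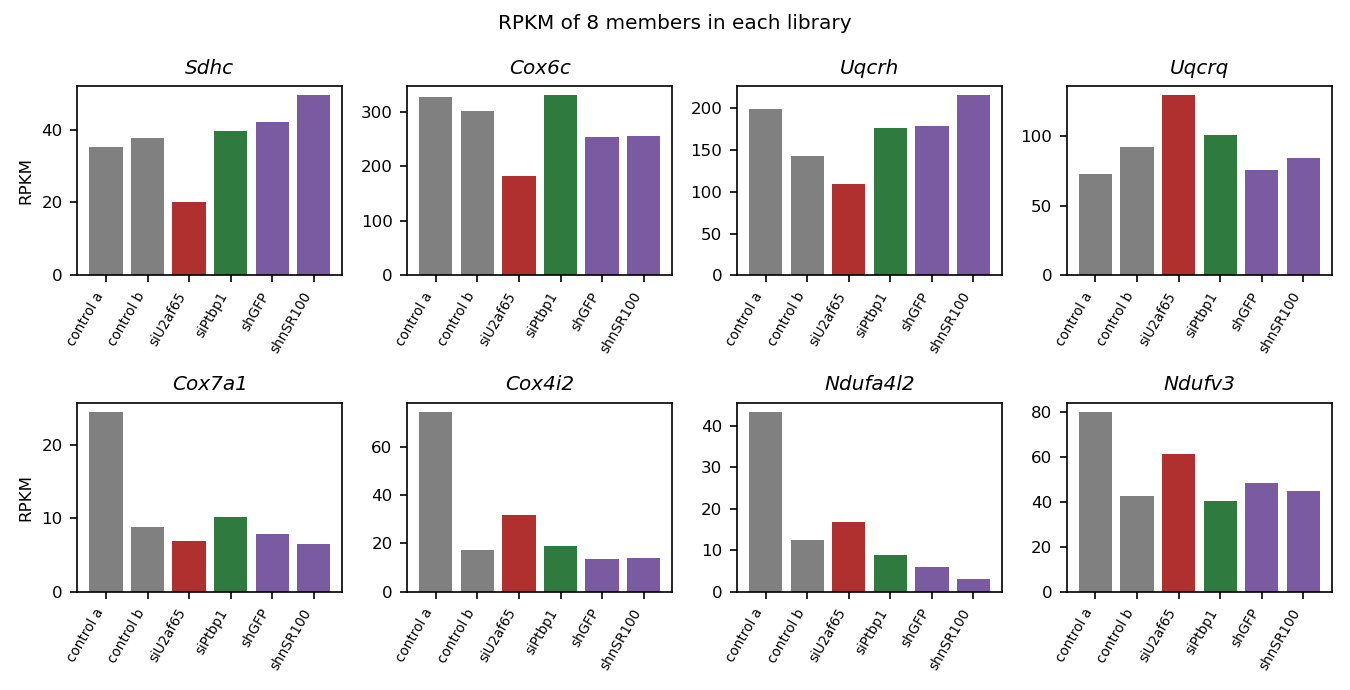
RPKM (vertical axis from 0, a scale of its own per gene) of 8 members in the 6 N2A files; each bar is 1 file, grey for the control siRNA libraries. Sdhc and Cox6c are lowest in siU2af65 (20.1 and 182 RPKM), and Cox7a1, Cox4i2 and Ndufa4l2 are highest in control a.

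In the U2af65 knockdown 1 of the 92 members passed the test. Sdhc, the membrane anchor of complex II that binds haem, was at 35.3 and 37.6 RPKM in controls a and b (36.4 ± 1.63, mean ± SD, n = 2), at 20.1 RPKM in siU2af65, at 39.5 RPKM in siPtbp1, and at 42.2 and 49.5 RPKM in shGFP and shnSR100. The siU2af65 library lay below each of the other 5 files. Sdhc fell by 0.96 on the log2 scale (SE 0.21, adjusted p 0.0375, edgeR's quasi-likelihood test). The log2 difference was -0.98 against control a alone and -0.95 against control b alone. Among all 11237 genes tested 5.24% passed, 1.82% higher and 3.42% lower. Before adjustment 7 members passed 0.05, 2 higher and 5 lower, against 23.5% of all genes. The call was lost with a minimum of 5 RPKM (adjusted p 0.0590) and with shGFP added to the controls (adjusted p 0.389). Over all 8 tested alternatives its adjusted p ran from 0.00626 to 0.389.

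The other 3 subunits of complex II did not pass in the U2af65 knockdown. Their log2 differences were 0.16 for the membrane anchor Sdhd (SE 0.21, adjusted p 0.689), 0.04 for Sdhb and -0.21 for the flavoprotein Sdha. Next to Sdhc stood Cox6c, a subunit of complex IV, with 327 and 302 RPKM in controls a and b, 182 RPKM in siU2af65, 331 RPKM in siPtbp1, and 254 and 255 RPKM in shGFP and shnSR100. Its siU2af65 value was the lowest of the 6. The log2 difference of Cox6c was -0.89 (SE 0.23, adjusted p 0.0515 by edgeR), and it passed under 5 of 8 alternatives, with adjusted p from 0.00685 to 0.487.

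Complex IV showed the lowest median of the nuclear classes in the U2af65 knockdown. Its 14 nuclear members had a median log2 difference of -0.31 and 1 of them, Cox5b, was above 0 (0.05), while over all genes tested the median was -0.0040 and 49.6% were above 0. Cox7a1 was lowest (-1.38, adjusted p 0.249), at -1.98 against control a alone and -0.37 against control b alone. Cox5a was second highest at -0.10, and it and Cox5b turned with the control, at -0.28 and -0.10 against a and at 0.11 and 0.21 against b. Cox7b2 was at -0.73, Cox4i2 at -0.68 and Cox7c at -0.59. Cox4i2 turned with the control as well, at -1.40 against control a alone and 0.83 against control b alone. Against control a alone 0 of the 14 were above 0 (median -0.40, all genes 50.8%), and against control b alone 5 of the 14 were (median -0.10, all genes 50.3%). The class therefore moved with the choice of control library.

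In complex III of the U2af65 knockdown, Uqcrh, the hinge protein, and Uqcrq, a small subunit, differed in opposite directions. Uqcrh was at 199, 143, 109, 176, 179 and 216 RPKM in control a, control b, siU2af65, siPtbp1, shGFP and shnSR100. Its siU2af65 value was the lowest of these, and its log2 difference was -0.76 (SE 0.28, adjusted p 0.136 by edgeR). Uqcrq was at 72.3, 92.2, 129, 101, 75.5 and 84.4 RPKM in the same order. Its siU2af65 value was the highest, and its log2 difference was 0.56 (SE 0.21, adjusted p 0.155 by edgeR). Uqcr10 was at 0.16 and Uqcrfs1, the Rieske iron-sulphur protein, at -0.24.

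In complexes I and V no nuclear member passed in the U2af65 knockdown. Complex I had a median log2 difference of -0.04. Its highest members were Ndufb4 (0.35) and the core subunit Ndufs7 (0.34), and its lowest were Ndufa4l2 (-0.87) and Ndufv1 (-0.53), the NADH-binding core subunit. Ndufa4l2 was at -1.53 against control a alone and at 0.39 against control b alone, so its direction turned with the control. Complex V had a median of -0.19. Its highest were 2 of the genes for the c subunit, Atp5g1 (0.46) and Atp5g2 (0.15, but -0.02 against control a alone), and its lowest were Atp5l (-0.52) and Atp5d (-0.39). Over the 80 nuclear members the median was -0.13 and 25 were above 0. It was -0.19 against control a alone and -0.02 against control b alone.

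**Figure D3:**
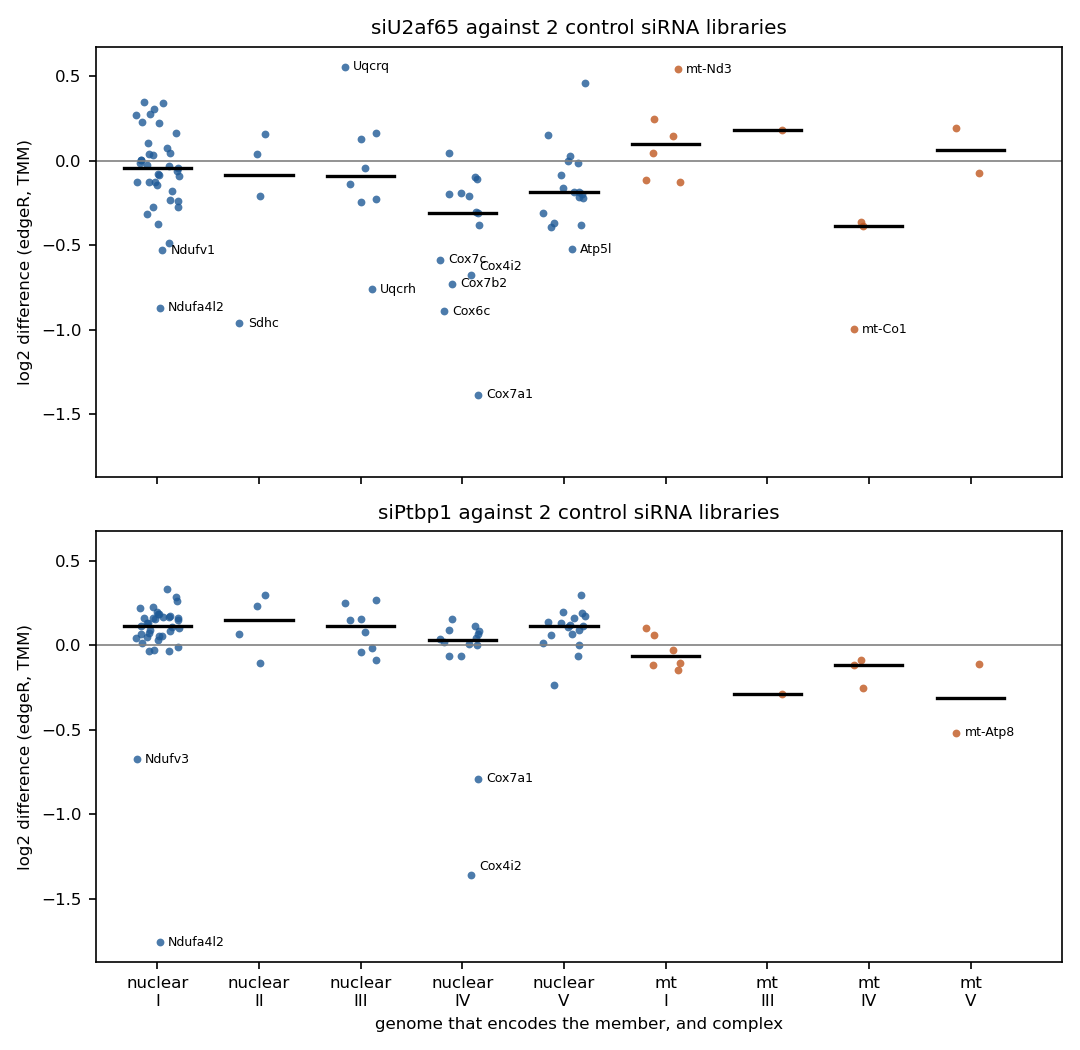
Log2 difference of each member (edgeR, TMM scaling) in the U2af65 (top) and Ptbp1 (bottom) knockdowns against 2 control libraries, by encoding genome and complex. Each point is 1 gene, each bar the class median, and names mark differences of at least 0.5. In the U2af65 knockdown the nuclear complex IV median is -0.31, and in the Ptbp1 knockdown most nuclear members lie just above 0 (median 0.09).

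The mitochondrial genes did not pass in the U2af65 knockdown. Their median log2 difference was -0.01, with 6 of 12 above 0, and it was 0.08 with library totals for scaling. The 3 genes of complex IV were all below 0. mt-Co1, the catalytic subunit that reduces oxygen, was at 13324 and 12650 RPKM in controls a and b, 6998 in siU2af65, 12435 in siPtbp1, and 7038 and 5912 in shGFP and shnSR100. The siU2af65 value thus lay with those of the hairpin files and below the other 3. The log2 difference of mt-Co1 was -0.996 (SE 0.80, adjusted p 0.493 by edgeR). It passed under 1 of 8 alternatives, DESeq2 (adjusted p 0.00375), within a range of 0.00375 to 0.748. Among all 11237 genes DESeq2 called 339 higher and 706 lower. mt-Co2 and mt-Co3 were at -0.38 and -0.36.

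Among the other mitochondrial genes of the U2af65 knockdown mt-Nd3 was highest at 0.54 (SE 0.26, adjusted p 0.249 by edgeR), followed by mt-Nd2 (0.25), mt-Atp8 (0.20), mt-Cytb (0.18), mt-Nd1 (0.15) and mt-Nd4 (0.05). mt-Atp6, mt-Nd6 and mt-Nd5 were at -0.07, -0.12 and -0.13. Against control b alone mt-Nd1 and mt-Nd4 were below 0 (-0.10 and -0.20), and against control a alone mt-Nd6 was above it (0.05). The balance within the mitochondrial genome differed between files. mt-Co1 made up 37.8% and 33.6% of the mitochondrial reads in controls a and b and 36.4% in siPtbp1. It made up 22.8% in siU2af65, 21.5% in shGFP and 19.2% in shnSR100. The RPKM ratio of mt-Co1 to mt-Nd1 was 12.5 in control a, 7.46 in control b, 8.90 in siPtbp1, 4.29 in siU2af65, 2.78 in shGFP and 2.23 in shnSR100. The 2 control libraries of 1 group thus differed in this ratio as well.

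**Figure D4:**
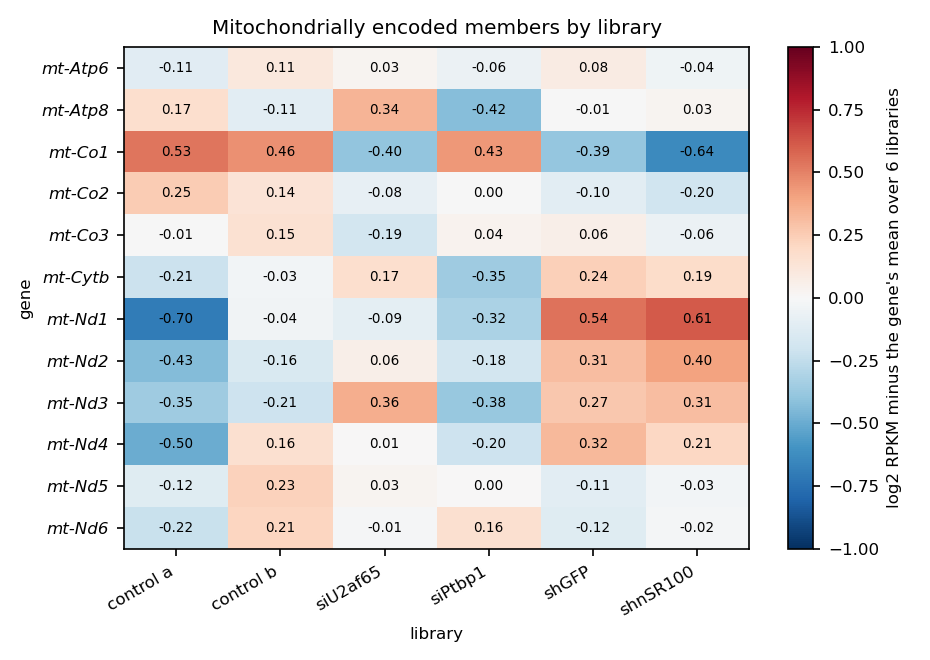
Log2 RPKM of the 12 mitochondrial genes (rows) in the 6 N2A files (columns), less each gene's mean over the files; red is above and blue below that mean. mt-Co1 is above its mean in both control siRNA libraries and siPtbp1 (0.53, 0.46 and 0.43) and below it in the other 3 files, and mt-Nd1 runs from -0.70 in control a to 0.61 in shnSR100.

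In the Ptbp1 knockdown 0 of the 92 members passed the edgeR test, as against 0.0267% of all genes. Before adjustment 1 member passed 0.05, Ndufa4l2, against 4.28% of all genes. DESeq2 called 0 members, with 1 gene higher and 19 lower among all 11237. With limma on log2(RPKM + 1) 2 members were called, Cox4i2 and Ndufa4l2, with 29 genes higher and 70 lower among all. Ndufa4l2 had a log2 difference of -1.76 (SE 0.66, adjusted p 0.999 by edgeR). It was -2.42 against control a alone and -0.50 against control b alone, so its size rested on control a. Cox4i2 was at -1.36 against both controls, at -2.08 against control a alone and at 0.15 against control b alone, where its direction turned.

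The nuclear members of the Ptbp1 knockdown were mostly above 0 by small amounts. Their median log2 difference was 0.09, with 64 of 80 above 0, while over all genes the median was 0.01 and 52.2% were above 0. The mitochondrial median was -0.11, with 2 of 12 above 0. Against control b alone, 73 of 80 nuclear members were above 0 (median 0.16, all genes 49.9% above 0) and 0 of 12 mitochondrial members were (median -0.16). Against control a alone, 45 of 80 nuclear members were above 0 (median 0.02, all genes 55.7%) and 5 of 12 mitochondrial members were (median -0.06). The counts thus depended on the control library, and complex IV turned with it, with 14 of 14 nuclear members above 0 against control b and 2 of 14 against control a.

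By complex, the nuclear medians in the Ptbp1 knockdown were 0.11 (I), 0.15 (II), 0.12 (III), 0.03 (IV) and 0.11 (V). In complex I the highest were Ndufc2 (0.33) and the core subunit Ndufv2 (0.29), and next to Ndufa4l2 the lowest was Ndufv3 (-0.67), at -1.10 against control a alone and -0.07 against control b alone. In complex II Sdhd was at 0.30, Sdhb at 0.23, Sdhc at 0.07 and Sdha at -0.10. In complex III the core protein Uqcrc1 (0.27) and Uqcrq (0.25) were highest and Uqcr10 (-0.08) and Uqcrc2 (-0.04) lowest. In complex IV Cox7b2 (0.15) and Cox5a (0.11) were highest and Cox4i2 and Cox7a1 (-0.79) lowest. Cox7a1 was at -1.38 against control a alone and at 0.22 against control b alone, and Cox5a at -0.07 and 0.32, so both turned with the control. In complex V Atp5s (0.30) and Atp5g3 (0.20) were highest and Atp5c1, the gamma subunit of the F1 part (-0.24), and Atp5f1 (-0.06) lowest.

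Among the mitochondrial genes of the Ptbp1 knockdown, mt-Nd6 (0.10) and mt-Nd2 (0.06) were above 0. mt-Nd1 (-0.02), mt-Co3 (-0.09), mt-Nd5 (-0.10), mt-Atp6 (-0.11), mt-Nd4 (-0.11), mt-Co1 (-0.12), mt-Nd3 (-0.15), mt-Co2 (-0.26) and mt-Cytb (-0.29) were below it. Against control a alone mt-Nd1 (0.27), mt-Nd4 (0.18) and mt-Nd5 (0.02) were above 0, and against control b alone mt-Nd6 (-0.05) and mt-Nd2 (-0.02) were below it. mt-Atp8 was lowest, at -0.52 (SE 0.27, adjusted p 0.999 by edgeR), and its length of 24 bases leaves its value uncertain.

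The siU2af65 and siPtbp1 libraries were also compared with each other in the same fit. Sdhc was lower in siU2af65 by a log2 difference of -1.03 (adjusted p 0.0496) and was the 1 member past the test, against 3.62% of all genes. Cox6c followed at -0.91 (adjusted p 0.0776). The nuclear median was -0.21, with 18 of 80 members above 0 against 50.3% of all genes, and the mitochondrial median 0.10. The 2 knockdowns share their control libraries, so their differences from the controls are not independent of each other.

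In the hairpin comparison (shnSR100 minus shGFP) there is 1 file per group and no test. On the log2(RPKM + 1) scale 1 member was past 1.5-fold, Ndufa4l2 (-0.75), which went from 6.0 to 3.16 RPKM. Of all genes at 1 RPKM or more in one file 6.79% were past that fold. The nuclear median was 0.11, with 62 of 80 above 0, against a median of 0.03 and 55.7% above 0 over all genes. The mitochondrial median was -0.01, with 6 of 12 above 0. The 3 genes of complex IV were below 0, with mt-Co1 lowest at -0.25, mt-Co3 at -0.12 and mt-Co2 at -0.098. mt-Atp6 and mt-Nd4 were at -0.12 each and mt-Cytb at -0.054. mt-Nd6 was highest at 0.10, and mt-Nd2, mt-Nd5, mt-Nd1, mt-Nd3 and mt-Atp8 lay between 0.03 and 0.09.

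By complex, the nuclear hairpin medians were 0.06 (I), 0.19 (II), 0.14 (III), 0.12 (IV) and 0.18 (V). Uqcr10, a small subunit of complex III, was highest at 0.46, with 183 RPKM in shGFP and 251 RPKM in shnSR100. In complex V Atp5l (0.41) and Atp5k (0.37) led, and in complex IV Cox7a2 (0.33) and Cox7b (0.22). The lowest of complex V were Atp5d (-0.04) and Atp5s (-0.02), and Cox7a1 (-0.22) was the lowest of complex IV. In complex I Ndufa5 was at 0.28 and Ndufa4 at 0.26, and Ndufb4 was lower at -0.53, from 59.99 to 41.4 RPKM. In complex II Sdha was at 0.24, Sdhc at 0.23, Sdhd at 0.15 and Sdhb at -0.04.

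The 2 control siRNA libraries were compared on the same scale, as control b minus control a, to show how far libraries of 1 group differed. Past 1.5-fold were 6 members, mt-Nd1 and mt-Nd4 (0.66 each) higher in b and Cox4i2 (-2.05), Ndufa4l2 (-1.72), Cox7a1 (-1.39) and Ndufv3 (-0.90) lower, against 11% of all genes. The median over all genes was 0.15 on this scale and -0.01 after TMM scaling of the 6 files. Relative to that shift, the nuclear members were lower in b, with a median of -0.02 on the first scale and -0.20 on the second. After TMM scaling 0 of 14 nuclear members of complex IV were above 0, against 48.5% of all genes. The complex IV median between the controls was -0.38 on that scale. In the U2af65 knockdown it was -0.31 in the fit to both controls, -0.40 against control a alone and -0.10 against control b alone. For this class the controls thus differed from each other about as much as siU2af65 differed from control a.

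**Figure D5:**
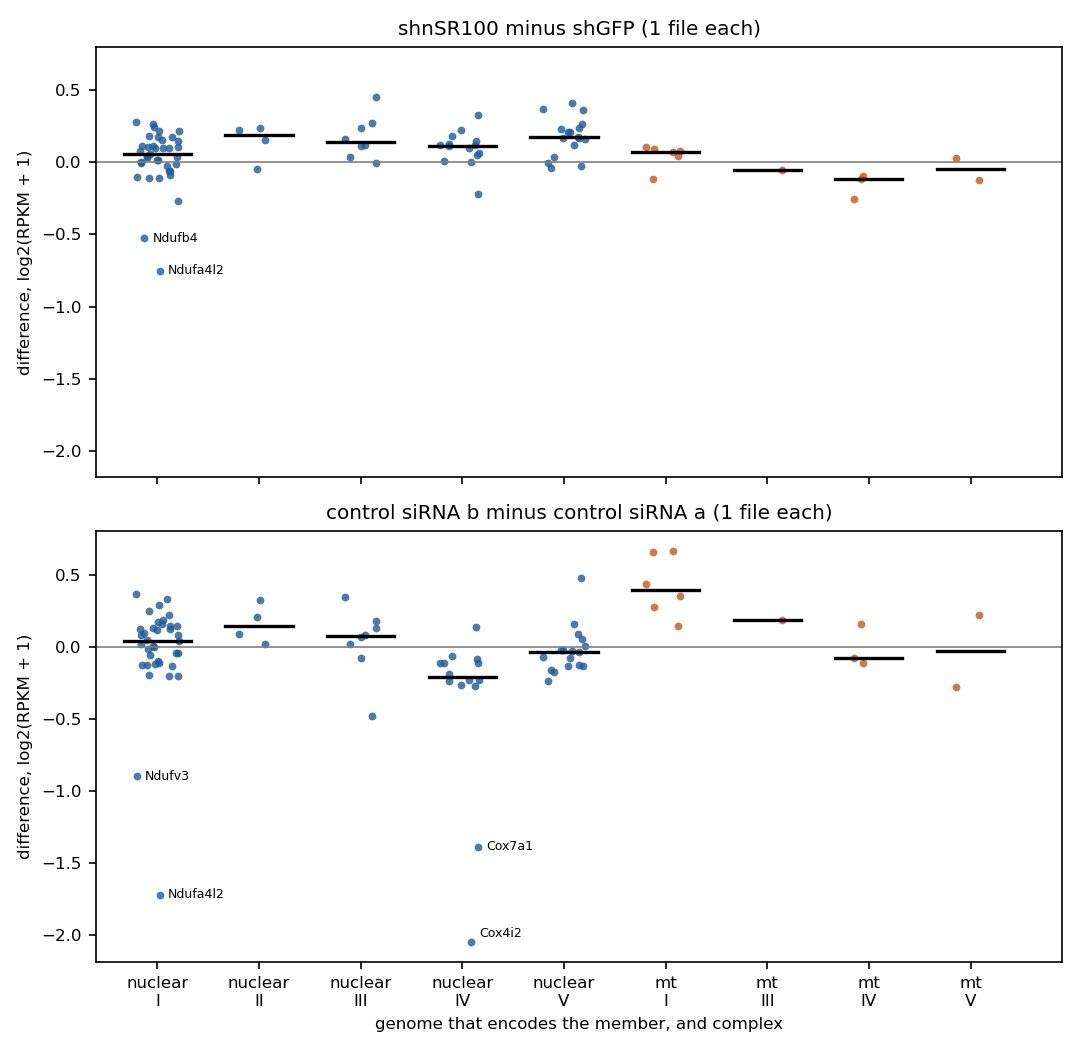
Difference in log2(RPKM + 1) of each member, shnSR100 minus shGFP (top) and control siRNA b minus control siRNA a (bottom), by encoding genome and complex; 1 file per group, points are genes and bars class medians. Names mark differences of at least 0.5 (top) or 0.7 (bottom). Ndufa4l2 and Ndufb4 are the lowest in the hairpin panel (-0.75 and -0.53), and Cox4i2 is the lowest in the control panel (-2.05).

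The nuclear members were also compared between the 6 files. For 48 of the 80 the highest file was under 1.5 times the lowest in RPKM, and for 5 it was over 2 times. The median of that ratio was 1.42, while it was 1.72 over the 9017 genes at or above the level of the lowest nuclear member. Beyond that minimum the 9017 genes were not matched to the members in level. The members were also chosen by their reads in the same 6 files. The 2 medians therefore do not show that the members were steadier than genes of like level. For the mitochondrial genes the median was 1.59, with 2.48 for mt-Nd1 as the highest and 1.16 for mt-Atp6 as the lowest.

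Other genes of mitochondrial metabolism were counted from lists. In the U2af65 knockdown 0 of 42 assembly factors passed edgeR's test (5 higher and 1 lower at an unadjusted p under 0.05), 1 of 31 genes of mitochondrial DNA maintenance and expression rose and 1 fell, and 1 of 77 mitochondrial ribosomal protein genes rose and 3 fell. Over all genes 1.82% rose, 3.42% fell and 23.5% were under an unadjusted p of 0.05, and against those shares these counts are no result about the lists. Those that rose were Twnk, the mitochondrial DNA helicase (1.25), and Mrps2 (1.40). Pnpt1, an RNA-degrading enzyme of mitochondria (-1.003), Mrpl37, Mrpl38 and Mrps9 fell. Among genes of the citrate cycle and pyruvate entry, Idh2 fell (-2.80, from 85.0 and 74.2 RPKM in the controls to 12.3 RPKM), as did Idh3g (-1.05). Coq6, an enzyme of ubiquinone synthesis, fell (-1.36) among 15 subunits and carriers outside the chosen families. Of 11 nuclear regulators 0 passed edgeR's test, with 3 past an unadjusted p of 0.05. In the Ptbp1 knockdown 0 genes of these lists passed edgeR's test, and at most 2 of a list were under an unadjusted p of 0.05. Above 0 there were 33 of 42 assembly factors, 20 of 31 maintenance genes and 59 of 77 mitochondrial ribosomal protein genes. So were 15 of 20 citrate cycle genes, 11 of 15 subunits and carriers and 5 of 11 regulators. In the hairpin comparison these were 36, 28, 59, 19, 12 and 8, in the same order. Over all genes 52.2% were above 0 in the Ptbp1 knockdown and 55.7% in the hairpin comparison. Between the controls (b minus a, log2(RPKM + 1)) the lists had 37, 26, 59, 14, 15 and 7 above 0, against 69.3% of all genes. Most lists thus leaned above 0 in both comparisons, but several also did so between 2 libraries of 1 group.

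Cox6a2, the muscle isoform of a complex IV subunit that the choice of members leaves out, was at 3.41 and 6.44 RPKM in controls a and b, 43.1 RPKM in siU2af65, 3.07 RPKM in siPtbp1, and 9.85 and 7.32 RPKM in shGFP and shnSR100. It rose in the U2af65 knockdown by 3.04 on the log2 scale (SE 0.44, adjusted p 0.0116 by edgeR). The other 3 muscle markers were under 1 RPKM in every file.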

How the data were processed

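The 6 N2A RNA-seq files hold, per gene and with no header, an RPKM value and a read count that the authors deposited. The submitters' processing notes name Bowtie and bedtools (2.17.0), and as genome builds mm9 and hg19, with no role given. The counting rule and strand use are not given in the sources used here. The RPKM equalled reads over a length fixed per gene and over the file's total, checked on 8935 genes. The 293T and crosslinking files were not analysed here.

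The deposited read counts of the 4 siRNA libraries were tested with edgeR 4.0.16 (R 4.3.3), by the quasi-likelihood test with TMM scaling, on the 11237 genes whose mean reached 1 RPKM. P-values were adjusted over all genes by Benjamini-Hochberg and called under 0.05. Only the control pair gives a residual degree of freedom (1), moderated with 8.65 prior degrees of freedom and a common dispersion of 0.0375. SE is the log2 difference divided by the square root of F. The labels do not say whether both controls were grown separately, and the p-values therefore reflect a spread that may be technical. DESeq2 1.42.0 and limma 3.58.1 were alternatives. The fitting script was run on simulated reads with independent libraries and a constant dispersion lower than that of these data. That run checks the code and does not bear on the calls made here. Differences with 1 file per group are described on log2(RPKM + 1), with a fold of 1.5.

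The members and the gene lists were chosen with earlier results of these data known. The genes named are the targeted genes, the mitochondrial members, the members past a test or fold, the 2 highest and 2 lowest nuclear members of complexes I, III, IV and V and all of complex II in each comparison, the extremes of level, the isoform pairs, and the members nearest the read minimum. Other names were chosen after their values were seen. A result for a listed gene is not reported here.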

Additional observations from a re-analysis of the deposited data

Results flagged for a closer look

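Sdhc differed between the 2 knockdowns in the test of the difference itself (siU2af65 minus siPtbp1), with a log2 difference of -1.03 and an adjusted p of 0.0496 by edgeR's quasi-likelihood test. It was at 20.1 RPKM in siU2af65 and at 39.5 RPKM in siPtbp1, with 1 library each. Over 8 tested alternatives the adjusted p ran from 0.00926 to 0.581, and 6 of them passed.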

How the results depend on the processing

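Members past the test in the U2af65 knockdown numbered 1, and 2 with RLE size factors, 3 with library totals, 5 without a filter on level, 0 with a mean of at least 5 RPKM, 0 with shGFP added as a control, 3 with DESeq2 and 6 with limma on log2(RPKM + 1). With shGFP added, edgeR called 0 of all 11237 genes. In the Ptbp1 knockdown the number was 0, and 1 with library totals, 2 without a filter and 2 with limma. Over all genes 0 rose and 3 fell there. With library totals 14 rose and 72 fell, without a filter 8 and 91 of 17622 genes, and with limma 29 and 70. Between siU2af65 and siPtbp1 the number of members was 1. It was 2 with library totals, 2 without a filter, 0 with at least 5 RPKM, 0 with shGFP added and 4 with limma. Over all genes 122 were higher in siU2af65 and 285 lower. With library totals these were 435 and 545, without a filter 525 and 754 of 17622 genes, and with limma 462 and 604. The cause was not tested. Calls over all genes in the U2af65 knockdown were 205 up and 384 down, and 580 up and 578 down with library totals. They were 294 up and 487 down with RLE, 339 and 706 with DESeq2, and 655 and 630 with limma. Without a filter 688 were up and 961 down of 17622 genes, and with at least 5 RPKM 74 and 183 of 8923.

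The mitochondrial median of the U2af65 knockdown (-0.01) was 0.082 with library totals, -0.069 without a filter, and -0.054 with shGFP added. Leaving out a control library gave -0.16 to 0.031. That of the Ptbp1 knockdown (-0.11) was -0.061 with library totals and -0.13 with at least 5 RPKM, and -0.16 to -0.065 when a control library was left out. On TMM-scaled CPM the hairpin mitochondrial median was -0.043, and between the controls the nuclear median was -0.20 and the mitochondrial median 0.029. With a control library left out no test is possible, as no residual degree of freedom remains.

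Some members that did not pass changed sign, under the tested settings none with an adjusted p under 0.05. Leaving out control a turned 5 named members in each knockdown, and leaving out control b turned 3 in the U2af65 and 5 in the Ptbp1 knockdown, with no test. They included Ndufa4l2 (U2af65, to 0.39 without control a), Cox7a1 and Cox4i2 (Ptbp1, to 0.22 and 0.15 without control a), and mt-Nd1 (Ptbp1, to 0.27 without control b). Cox4i2 in the U2af65 knockdown, which that count leaves out, turned to 0.83 without control a. In the U2af65 knockdown, library totals gave Cox5a 0.012 and mt-Atp6 0.028, limma gave Cox5a 0.017 and mt-Atp6 0.032, no filter gave Cox5b -0.018, Sdhb -0.019 and mt-Nd4 -0.0081, and shGFP added gave Cox5a 0.056, mt-Nd1 -0.15 and mt-Nd4 -0.080. In the Ptbp1 knockdown, library totals gave Uqcrc2 0.013 and mt-Nd1 0.014, limma gave Uqcrc2 0.013 and mt-Nd1 0.053, and shGFP added gave Atp5f1 0.00090, Uqcrc2 0.10, mt-Co1 0.14 and mt-Nd2 -0.12. Choosing members by mean reads gave the same 92 genes. The files list 0 mitochondrial ribosomal or transfer RNA genes, so the share of reads without them could not be run.

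No paired analysis was possible because each hairpin file pools its 2 runs and each siRNA knockdown has 1 letter, so a replicate block leaves no residual degree of freedom.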
